A study of Mus musculus with 12 samples.

Results

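The response to hypertonic sodium chloride was measured in collecting duct cells that expressed a dominant-negative mutant, by comparing 3 RNA libraries of cells with added NaCl with 3 libraries of cells without it. These 6 libraries, of 12 in the series, were chosen by their labels alone, and all expressed genes entered the comparison. The cells are IMCD3, a mouse line of the inner medullary collecting duct, in the subclone 53a, so that all values come from 1 clone. As known of the study, mifepristone switches on the mutant in this subclone, a dominant-negative form of a factor that controls transcription in the epithelium of kidney tubules. All 6 libraries came from cells given mifepristone, the controls included, and the treated cells had 100 mM NaCl added. The labels used here give no duration for either treatment. The remaining 6 libraries are of the same subclone with vehicle in place of mifepristone, 3 without and 3 with the same NaCl. They are used to ask whether the NaCl response differs. They also enter the filter and the shared estimate of spread, on which all standard errors and adjusted p-values rest. Libraries are named by their group and the letters A, B and C. Cells that lack the inducible mutant are not among these groups, so an action of mifepristone itself and that of the mutant cannot be told apart.

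Cells of the inner medulla live in fluid of high and changing salt concentration. When salt rises outside, water leaves the cell, ions in it become concentrated, and the cell replaces them over hours with small organic osmolytes such as sorbitol, betaine, taurine and myo-inositol. NFAT5, also called TonEBP, is the transcription factor best known for switching on the enzymes and transporters of these osmolytes, together with heat shock genes, through a short DNA element named the tonicity-responsive enhancer (TonE). The mutated factor binds promoters of many tubule genes, and a dominant-negative mutant of it is designed to blunt their transcription.

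Promoter sequences are shown first, because the TonE consensus is the element most closely tied to this stimulus. The consensus, 11 letters long and allowing alternative bases at some positions, was searched on both strands in the 250 bases before each start site in RefSeq (GRCm38.p6). The windows below are those of the largest rises with NaCl that held a match and overlapped no annotated exon, and they were chosen after the values were seen. Capitals mark the match.
Slc6a12 promoter: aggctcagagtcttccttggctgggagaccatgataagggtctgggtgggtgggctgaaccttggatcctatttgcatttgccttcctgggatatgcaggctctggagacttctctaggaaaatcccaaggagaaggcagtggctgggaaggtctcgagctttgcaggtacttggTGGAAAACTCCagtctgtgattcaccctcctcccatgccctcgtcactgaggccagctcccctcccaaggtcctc
Gucy2g promoter: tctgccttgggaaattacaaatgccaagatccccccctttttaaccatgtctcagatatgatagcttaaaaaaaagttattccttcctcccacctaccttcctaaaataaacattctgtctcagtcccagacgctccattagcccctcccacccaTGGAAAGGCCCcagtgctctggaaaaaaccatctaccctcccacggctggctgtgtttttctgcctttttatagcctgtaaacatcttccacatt
Hif1a promoter: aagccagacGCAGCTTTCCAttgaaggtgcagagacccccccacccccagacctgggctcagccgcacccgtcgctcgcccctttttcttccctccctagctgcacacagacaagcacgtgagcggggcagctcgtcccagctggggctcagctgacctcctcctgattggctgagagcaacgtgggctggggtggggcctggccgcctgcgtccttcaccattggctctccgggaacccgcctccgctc
Pcx promoter: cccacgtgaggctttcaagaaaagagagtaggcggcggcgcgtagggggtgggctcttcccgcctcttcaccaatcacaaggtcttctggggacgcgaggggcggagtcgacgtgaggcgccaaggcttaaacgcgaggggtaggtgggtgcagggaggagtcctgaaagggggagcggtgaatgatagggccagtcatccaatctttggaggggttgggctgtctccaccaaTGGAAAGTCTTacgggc
Slc6a12 encodes the betaine transporter BGT1, and its window lies on the plus strand of chromosome 6 (chr6:121342324-121342573), with the match starting 75 bases before the start site. Gucy2g, a receptor guanylyl cyclase gene, has its window on the minus strand of chromosome 19 (chr19:55217573-55217822), with the match 95 bases before the start. The Hif1a window (chr12:73907617-73907866, plus strand) lies in an intron of longer annotated transcripts of the gene, and its match, 241 bases before the start, reads on the opposite strand. Pcx encodes pyruvate carboxylase, which feeds carbon into the citric acid cycle, and its window (chr19:4510222-4510471, plus strand) holds the match 17 bases before the start. Gucy2g rose from a mean of 0.0838 to 4.96 FPKM (log2 fold change 3.22) and Pcx from 10.4 to 63.7 FPKM (2.55), and the values of the other genes follow below. A match was found in 25 of 423 windows of genes that rose at least 2-fold (5.91%) and in 9 of 228 windows of genes that fell at least 2-fold (3.95%). The share was 3.3% over the windows of all tested genes and 4.31% over all 32851 windows of the table. Windows were found for 313 of the 468 genes that rose and 172 of the 257 that fell. A match is a description of the letters, and distal elements lie outside these windows.

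Expression is given as FPKM, fragments counted per unit of transcript length and of library depth, as the authors deposited it, and fold changes are differences of log2(FPKM + 0.5), which understate the change of genes near 0. A gene was called when limma gave an adjusted p under 0.05. The libraries of the 6 samples held 41940955 to 49270776 reads assigned to genes, as recovered from the deposited values. Log2 values correlated at 0.9893 to 0.9971 within a group and 0.9566 to 0.9606 between the groups. Mifepristone C stood apart from mifepristone A and B, with shorter transcripts higher (Spearman rho of -0.513 across genes between its deviation from the group mean and exon length, against 0.464 and 0.423). The labels do not say whether A, B and C are separate cultures, so the p-values reflect variation among 3 libraries a group that may be technical only. Markers were in part those of a collecting duct epithelium: the cytokeratins Krt8 and Krt18, E-cadherin (Cdh1), Epcam, Pax2, Pax8 and Hoxb7 were expressed. Aqp2, the vasopressin-regulated water channel, the vasopressin receptor Avpr2 and the sodium channel subunits Scnn1b and Scnn1g stayed below 1 FPKM in all 6 libraries. Of the 24 listed markers of principal and inner medullary collecting duct cells, 12 were under 1 FPKM in all 6. Of the lists for other cell types, 12 of 15 leukocyte markers, 10 of 11 endothelial and 12 of 14 fibroblast and smooth muscle markers were under 1 FPKM in all 6, Ptprc, Pecam1 and Pdgfrb among them.

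With NaCl, 8248 of 14044 tested genes were called (58.7%), 3440 of them higher (24.5%) and 4808 lower (34.2%), with a median log2 fold change of -0.06 over all genes tested. The excess of falls depended on the scaling. With median-ratio scaling 3993 genes were higher and 4082 lower, and with voom, a fit on recovered reads, 4020 and 4096. A fit on only the 6 libraries compared, without the vehicle libraries, called 2962 higher and 4019 lower. Large changes went mainly upward: 468 genes rose at least 2-fold (3.33%) and 257 fell at least 2-fold (1.83%). All 3 NaCl libraries were above all 3 controls for 3598 genes (25.6%) and below them for 4947 (35.2%). Since most genes were called, the shares of rising and falling genes above are the background for each gene group that follows. The lists of these groups were chosen with earlier results of these data known, so their shares are descriptions and not tests. In bulk RNA, fewer cells of a kind and less RNA per cell cannot be told apart.

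**Figure D1:**
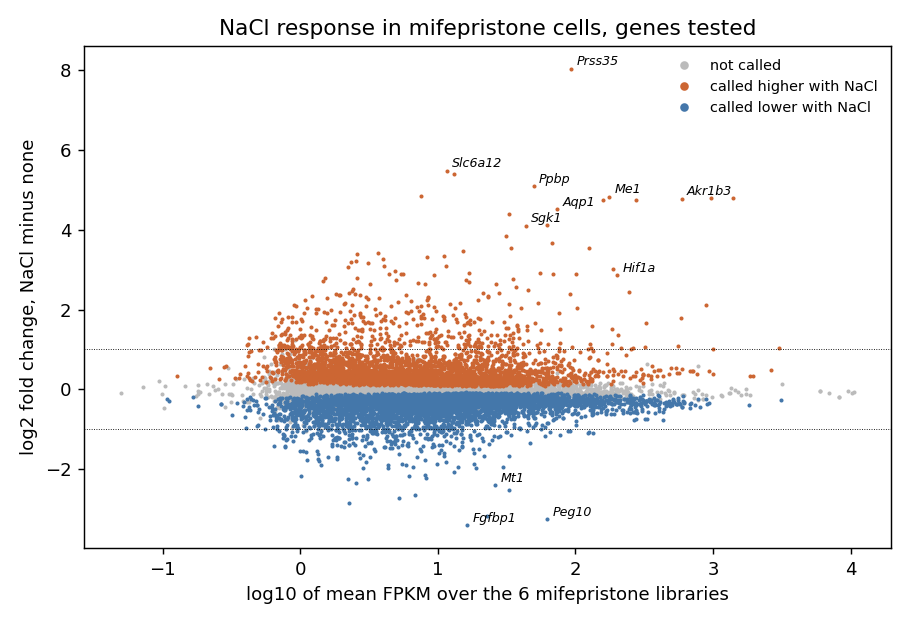
Each point is a tested gene, with its mean FPKM over the 6 libraries on a log axis and its log2 fold change with NaCl in mifepristone cells, coloured by whether it was called. The largest changes are rises, up to 8.04 on the log2 scale, and the deepest fall is -3.41.

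As the plot of change against level shows, rises reached further than falls. The single largest rise was that of Prss35, a gene for a protein related to serine proteases (chromosome 9, 86743649 to 86758443). Its level was 0.185, 0.246 and 0.205 FPKM in mifepristone A, B and C and 194, 182 and 185 FPKM in the 3 libraries with NaCl. No control library came near the treated ones (log2 fold change 8.04, SE 0.06, 263-fold on this scale, adjusted p 2.07e-14).

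Organic osmolyte genes rose in most cases. Of 15 tested genes of a list of 17 for organic osmolytes and tonicity, 12 rose, 1 fell and 2 were not called, with a median log2 fold change of 1.5. Akr1b3 encodes aldose reductase, which makes sorbitol from glucose (chromosome 6, 34302434 to 34317478). Its level was 39.7, 37.7 and 46.7 FPKM without NaCl and 1175, 1152 and 1091 FPKM with it. All 3 treated libraries lay far above the controls, and with NaCl the FPKM of Akr1b3 exceeded that of every other gene of the list (4.77, SE 0.083, 27.3-fold, adjusted p 7.19e-12). The predicted genes Gm6736, Gm12138 and Gm38056 showed nearly the same rise (4.79, 4.81 and 4.75), but their transcripts match Akr1b3 at 99.5%, 99.1% and 99.7% of aligned bases (over 26.9% of the length for Gm38056), so reads may not be separable among them.

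The betaine transporter gene Slc6a12, whose promoter is shown above, had 0.036, 0.0277 and 0.0264 FPKM in the controls and 22.1, 23.2 and 24.4 FPKM with NaCl. Its controls were at the edge of detection, with 13 reads in the 3 libraries together against 9794 with NaCl, a ratio of 776 after scaling to depth (95% exact counting interval 454 to 1458). The fitted log2 fold change was 5.48 (SE 0.06, adjusted p 1.48e-13), and 9.50 with voom, a fit that works on the reads and adds less to low values. Slc6a6, the taurine transporter gene, measured 44.1, 43.0 and 33.3 FPKM without and 111, 108 and 123 FPKM with NaCl. Slc5a3, which imports myo-inositol, measured 29.8, 26.4 and 21.8 FPKM without and 56.3, 53.4 and 62.1 FPKM with NaCl. Both transporters were clearly apart between groups but rose far less than Akr1b3 or Slc6a12 (Slc6a6 1.5, SE 0.104; Slc5a3 1.13, SE 0.092).

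Nfat5, the transcription factor gene of the pathway, had 62.1, 54.9 and 36.9 FPKM in the controls and 68.7, 69.2 and 81.1 FPKM with NaCl. Its rise was small (0.53, SE 0.165, adjusted p 0.0169) and rested on a wide control group, in which mifepristone C was lowest. In a fit on only the 6 libraries compared the adjusted p was 0.0533, and without mifepristone plus NaCl C it was 0.0628, so the call for Nfat5 was lost. Sgk1, a kinase that regulates sodium transport, rose from 4.2, 4.37 and 4.53 to 83.8, 83.0 and 80.9 FPKM (4.09, SE 0.045). Ranbp3l, listed here as a tonicity gene, rose from a mean of 0.119 to 25.9 FPKM (5.41, SE 0.063). The members that did not rise were Gpd1, a glycerol phosphate dehydrogenase gene that fell (-0.68), and the uncalled Slc7a1 (-0.15) and Tsc22d2 (-0.09). These 3 were named after their values were seen. Without mifepristone C, 3 members of the list were called lower in place of 1.

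**Figure D2:**
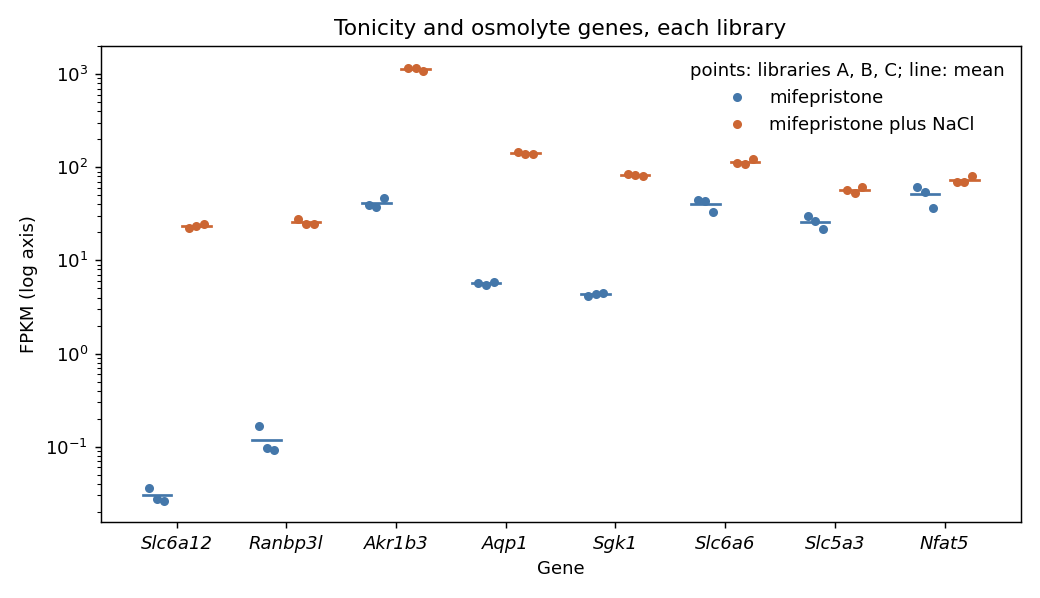
FPKM (log axis) of 8 osmolyte and tonicity genes in mifepristone cells without and with NaCl, with points for libraries A, B and C and a line at the mean. The NaCl libraries lie above the controls for each gene drawn, from a small shift for Nfat5 (log2 fold change 0.53) to the largest for Slc6a12 (5.48).

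The plot of osmolyte genes by library shows the order of the responses: Slc6a12 and Ranbp3l start near 0, Akr1b3 starts high and ends highest, and Nfat5 hardly shifts against its own spread. Among the 12 largest rises were several genes outside osmolyte handling. Me1, malic enzyme, which makes NADPH in the cytosol, had 11.4, 11.4 and 11.9 FPKM without NaCl and 358, 329 and 338 FPKM with it (4.83, SE 0.052). Loxl4, a lysyl oxidase gene that crosslinks collagen and elastin, measured 6.69, 6.87 and 5.38 FPKM without and 107, 114 and 130 FPKM with NaCl (4.11, SE 0.098). Rnf183, a ubiquitin ligase gene of the kidney, rose from a mean of 3.68 to 59.1 FPKM (3.84, SE 0.075). Each of these genes kept its control libraries close together and far below the treated ones.

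Alox12e, an epidermal lipoxygenase gene, also rose from near 0, with 16 reads in the controls together and 5859 with NaCl (ratio 377, counting interval 232 to 660). Its level reached 15.4, 14.7 and 15.02 FPKM, and the log2 fold change was 4.85 (SE 0.047) on the FPKM scale and 8.5 with voom. The other genes of this group were the chemokine genes Ppbp and Ccl7 and the water channel gene Aqp1, described with their own groups below.

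The largest fall on this scale was that of Fgfbp1, which encodes a carrier protein of fibroblast growth factors. It measured 28.4, 29.5 and 33.2 FPKM without NaCl and 2.41, 2.45 and 2.33 FPKM with it, a 10.6-fold fall (-3.41, SE 0.057, adjusted p 4.92e-12). Fgf1, a growth factor of that family, fell as well, from a mean of 21.5 to 4.74 FPKM (-2.07, SE 0.071). Peg10, an imprinted gene derived from a retrotransposon (chromosome 6, 4747306 to 4760517), measured 125, 121 and 92.0 FPKM without and 11.6, 10.9 and 11.1 FPKM with NaCl (-3.26, SE 0.097). The 3 treated libraries were tightly grouped, and mifepristone C was the lowest control. Upk1a, a uroplakin gene of urothelium, fell from 12.2 to 1.52 FPKM (-2.65, SE 0.06), and Tnc, the matrix glycoprotein tenascin C, from 5.48 to 0.744 FPKM (-2.26, SE 0.093). Nab2, a repressor of EGR transcription factors, fell from 13.8 to 2.60 FPKM (-2.21, SE 0.044), and Zfp750, an epidermal differentiation factor, from 3.98 to 0.438 FPKM (-2.26, SE 0.081). Mgst1, a microsomal glutathione transferase gene, measured 3.82, 4.27 and 4.95 FPKM without and 0.184, 0.213 and 0.109 FPKM with NaCl, and its fall was -2.85 (SE 0.096) on the FPKM scale and -4.66 with voom, where it exceeded that of Fgfbp1 (-3.61).

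Sodium pump and transport genes were compared next, since the pump carries the sodium that enters the cell back out. Of 15 tested genes on a list of 22, 7 rose, 4 fell and 4 were not called, with a median of 0.04. Atp1b1, the beta subunit of the pump, measured 159, 157 and 155 FPKM without and 506, 490 and 492 FPKM with NaCl (1.66, SE 0.038). Both groups were narrow and did not overlap. Stk39, a kinase that activates sodium chloride cotransporters, rose from 1.44 to 3.88 FPKM (1.18, SE 0.055).

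Fxyd2, the gamma subunit that modulates the pump (chromosome 9, 45399669 to 45410278), had 0.0696, 0 and 0.0319 FPKM without NaCl and 5.01, 5.12 and 5.21 FPKM with it. The controls held 3 reads together and the treated libraries 446, a ratio of 153 (counting interval 52.1 to 745), and the log2 fold change was 3.40 (SE 0.055) on the FPKM scale and 7.01 with voom. Fxyd2 thus rose in the mifepristone cells, although to a level far below that of vehicle cells, given below.

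Water channels and urea transporters were mostly silent: 10 of 12 listed genes were under 1 FPKM in all 6 libraries, and of the 3 tested 2 rose. Aqp1, the constitutively open water channel, had 5.7, 5.47 and 5.93 FPKM without and 147, 138 and 139 FPKM with NaCl (4.52, SE 0.042), and no treated library approached the controls. Aqp5, another water channel, rose from 0.706 to 1.99 FPKM (1.04, SE 0.088). Slc14a2, the urea transporter gene of the inner medulla, was at 0.337, 0.331 and 0.378 FPKM without and 0.327, 0.215 and 0.299 FPKM with NaCl, groups that lie close together near 0. Its change of -0.12 (SE 0.082, adjusted p 0.221) was not called, and with quantile normalization it was -0.33 (adjusted p 0.00538). The other urea transporter gene, Slc14a1, had 1 read in the controls together and 196 with NaCl.

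Cytosolic heat shock genes went both ways. Of 22 tested genes of 23, 10 rose, 6 fell and 6 were not called, with a median of 0.13. Hsph1, a large chaperone of the HSP110 family, measured 23.8, 23.0 and 23.8 FPKM without and 179, 174 and 178 FPKM with NaCl (2.89, SE 0.036), and its relative Hspa4l, known for osmotic induction in the inner medulla, rose from 8.43 to 47.2 FPKM (2.42, SE 0.07). The inducible HSP70 genes Hspa1a (28.8 to 155 FPKM, 2.4) and Hspa1b (76.1 to 415 FPKM, 2.44) rose alike, and since their sequences are nearly identical their reads may not be separable. Of the genes that fell, Hspa8, the constitutive HSP70, went from 512 to 348 FPKM (-0.56) and Hsp90ab1 from 474 to 341 FPKM (-0.47), and these 2 were named after their values were seen.

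Genes of the unfolded protein response and of ATF4 rose more often than they fell, with 11 of 23 higher, 5 lower and a median of 0.12. Psat1, an enzyme of serine synthesis, measured 167, 163 and 174 FPKM without and 345, 339 and 327 FPKM with NaCl (1.0, SE 0.045). Atf3, a stress-induced transcription factor, rose from 22.2 to 47.6 FPKM (1.09, SE 0.058), Ddit4, an inhibitor of mTORC1, from 50.7 to 92.8 FPKM (0.87, SE 0.046), and Dnajb9, a chaperone of the endoplasmic reticulum, from 10.9 to 18.8 FPKM (0.77, SE 0.044). Among 19 tested immediate early and AP-1 genes 9 rose and 7 fell, with a median of 0.06. Dusp1, a phosphatase that turns off MAP kinases, measured 6.41, 6.94 and 7.51 FPKM without and 47.0, 45.5 and 44.3 FPKM with NaCl (2.63, SE 0.056), and Jun rose from 11.4 to 27.9 FPKM (1.25, SE 0.067). Egr2, a growth factor-induced transcription factor, went the other way, from 1.32 to 0.272 FPKM (-1.24, SE 0.067, and -2.21 with voom).

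Chemokine and NF-kB genes were among the groups with the most rises. Of 22 tested genes of 27, 18 rose, 1 fell and 3 were not called, with a median of 0.59. Ppbp, the chemokine CXCL7 (chromosome 5, 90768518 to 90770063), measured 2.42, 2.31 and 2.33 FPKM without and 95.5, 99.1 and 95.7 FPKM with NaCl (5.09, SE 0.094). Ccl7 measured 2.44, 2.404 and 2.64 FPKM without and 69.6, 58.0 and 61.0 FPKM with NaCl (4.40, SE 0.174). Both chemokines had tight control groups far below all treated libraries. Ccl2, which attracts monocytes, rose from 40.5 to 331 FPKM (3.02, SE 0.077), and Cxcl2, which attracts neutrophils, from 0.460 to 7.61 FPKM (3.09, SE 0.098). Tnfaip3, the NF-kB inhibitor A20, rose from 1.26 to 4.34 FPKM (1.46, SE 0.056), and Csf1, the macrophage growth factor, from 14.8 to 34.3 FPKM (1.19, SE 0.047). The member that fell was Cx3cl1, a membrane-bound chemokine (18.7 to 8.76 FPKM, -1.05), named after its value was seen. The summed level of 15 leukocyte markers was 13.7 to 14.3 FPKM without and 16.9 to 18.3 FPKM with NaCl, 12 of them under 1 FPKM in all 6 libraries and Cd68 and Cd14 called higher (0.37 and 0.54), and the pan-leukocyte gene Ptprc averaged 0.0119 and 0.0450 FPKM. The part of these markers in the chemokine rises was not tested.

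Interferon response genes shifted less. Of 33 tested, 17 rose, 7 fell and 9 were not called, with a median of 0.19. Irf7, a transcription factor of that response, rose from 20.6 to 37.9 FPKM (0.86, SE 0.081), Ifit2 from 93.0 to 163 FPKM (0.80, SE 0.069), the RNA sensor gene Ddx58 from 17.4 to 29.1 FPKM (0.73, SE 0.057) and the antiviral gene Mx2 from 10.2 to 16.9 FPKM (0.71, SE 0.06). In each of these 4 genes every treated library was above every control.

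Acute phase and complement genes fell. Of 9 tested genes of a list of 20, 7 fell and 2 rose, with a median of -1.34, although 9 of the 20 stayed under 1 FPKM in all 6 libraries. Lcn2, a siderophore-binding protein and marker of tubular injury, measured 41.1, 38.9 and 44.2 FPKM without and 4.04, 4.38 and 4.04 FPKM with NaCl (-3.17, SE 0.058). Slpi, a secreted protease inhibitor gene, measured 51.5, 53.6 and 64.7 FPKM without and 9.23, 10.3 and 8.65 FPKM with NaCl (-2.52, SE 0.108). Both fell in every library to well below the lowest control. Saa3, an acute phase apolipoprotein, measured 8.66, 7.69 and 12.1 FPKM without and 1.31, 1.1 and 0.602 FPKM with NaCl (-2.73, SE 0.187), and Cp, ceruloplasmin, fell from 17.7 to 6.70 FPKM (-1.34, SE 0.059). Lbp, which binds bacterial lipopolysaccharide, fell from 38.2 to 25.5 FPKM (-0.57, SE 0.035).

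Prostaglandin genes went both ways, with 4 of 10 tested genes higher and 4 lower. The 2 cyclooxygenase genes rose, Ptgs1 from 1.87 to 14.4 FPKM (2.65, SE 0.065) and Ptgs2 from 1.91 to 7.89 FPKM (1.80, SE 0.084). Ptges2, a prostaglandin E synthase gene, fell from 4.53 to 2.91 FPKM (-0.56, SE 0.051), and Ptgfrn, a regulator of the prostaglandin F receptor, fell from 40.1 to 22.4 FPKM (-0.83, SE 0.071).

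In energy metabolism, glycolysis genes rose and sterol synthesis genes fell. Of 22 tested glycolysis and hypoxia genes 18 rose and 2 fell, with a median of 0.38. Hif1a, the oxygen-regulated transcription factor whose promoter is shown above, measured 50.3, 47.9 and 46.9 FPKM without and 369, 348 and 348 FPKM with NaCl (2.86, SE 0.045). Its controls and treated libraries were each narrow and lay far apart. Pfkfb3, which sets the rate of glycolysis, rose from 1.83 to 7.22 FPKM (1.73, SE 0.06), the glucose transporter gene Slc2a1 from 26.8 to 45.1 FPKM (0.74, SE 0.045) and hexokinase 1 (Hk1) from 22.9 to 35.6 FPKM (0.62, SE 0.041).

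All 25 cholesterol synthesis and uptake genes on the list were tested, and 22 fell while 3 rose, with a median of -0.54. Hmgcs1, which makes the precursor of mevalonate, measured 77.4, 79.3 and 80.7 FPKM without and 42.3, 41.2 and 38.5 FPKM with NaCl (-0.95, SE 0.049). Squalene epoxidase (Sqle) fell from 42.8 to 25.3 FPKM (-0.74, SE 0.037) and Cyp51 from 40.7 to 25.3 FPKM (-0.68, SE 0.044). The 3 members that rose, Pmvk (0.66), Hsd17b7 (0.27) and Mvk (0.19), are enzymes of the same pathway and were named after their values were seen. Of 14 tested genes of fatty acid synthesis 8 fell and 2 rose, with a median of -0.32. The falls include Mid1ip1, an activator of acetyl-CoA carboxylase (18.4 to 11.8 FPKM, -0.62), and the transcription factor gene Srebf1 (39.4 to 30.5 FPKM, -0.36). The 2 that rose are Me1, given above, and Acss2, an acetyl-CoA synthetase gene (0.716 to 1.43 FPKM, 0.66).

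Of 22 tested NRF2 and glutathione genes 9 rose and 9 fell. Srxn1, sulfiredoxin, rose from 15.1 to 30.1 FPKM (0.97, SE 0.035), whereas Txnrd1, thioredoxin reductase, fell from 62.0 to 37.2 FPKM (-0.73, SE 0.037) and Nfe2l2, which encodes NRF2 itself, fell from 32.2 to 18.5 FPKM (-0.79, SE 0.03). Among 8 tested metallothionein and zinc genes 4 fell and 0 rose, 2 of the listed 10 staying under 1 FPKM in all 6 libraries. Mt1, a metal-binding metallothionein, measured 40.4, 40.9 and 51.6 FPKM without and 8.53, 8.99 and 6.36 FPKM with NaCl (-2.41, SE 0.118), and Mt2 fell from 10.3 to 1.92 FPKM (-2.17, SE 0.113). Slc30a1, a zinc exporter, fell from 21.8 to 16.6 FPKM (-0.39, SE 0.037).

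Among 15 tested amino acid transporter genes 5 rose and 5 fell. Slc7a6, an exchanger of cationic and neutral amino acids, measured 15.5, 15.8 and 14.8 FPKM without and 65.8, 62.9 and 64.6 FPKM with NaCl (2.04, SE 0.035). Its relative Slc7a7 rose from 0.812 to 2.16 FPKM (1.02, SE 0.065). The glutamine transporter gene Slc1a5 fell from 10.3 to 4.45 FPKM (-1.13, SE 0.038), and Slc7a5, a leucine transporter, from 32.4 to 23.0 FPKM (-0.49, SE 0.036).

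Tight junction genes fell. Of 19 tested genes of 25, 13 fell and 2 rose, with a median of -0.45. Cldn8, a claudin of the collecting duct, measured 46.1, 45.3 and 51.4 FPKM without and 13.02, 12.2 and 10.7 FPKM with NaCl (-1.95, SE 0.071), and Cldn3 measured 16.0, 18.1 and 20.0 against 4.85, 4.74 and 4.63 FPKM (-1.81, SE 0.077). Neither pair of groups overlapped. Ocln, occludin, fell from 6.69 to 2.69 FPKM (-1.17, SE 0.053), and Cldn2, a claudin that forms pores for cations, fell from 1.34 to 0.192 FPKM (-1.41, SE 0.057, and -2.74 with voom). The members that rose, Cgnl1 (1.53) and Cldn4 (0.43), were named after their values were seen.

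Extracellular matrix and mesenchymal genes went both ways, 9 up and 7 down of 19 tested. Cdh2, N-cadherin, rose from 6.39 to 25.02 FPKM (1.89, SE 0.042), the laminin chain gene Lamb3 from 5.84 to 21.2 FPKM (1.77, SE 0.052), and Col4a4, a basement membrane collagen gene, from 20.0 to 56.2 FPKM (1.47, SE 0.091). The summed level of fibroblast and smooth muscle markers was 7.14 to 7.74 FPKM without and 4.79 to 4.98 FPKM with NaCl, with 12 of 14 under 1 FPKM in all 6 libraries and Dcn, decorin, falling from 5.69 to 2.98 FPKM (-0.83). Among 19 tested YAP and TEAD target genes 8 rose and 5 fell. F3, tissue factor, fell from 47.4 to 21.1 FPKM (-1.16, SE 0.076), Ctgf from 9.42 to 5.02 FPKM (-0.85, SE 0.076), and Crim1 rose from 16.0 to 27.0 FPKM (0.74, SE 0.07).

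Among 24 tested Wnt pathway genes 16 fell and 5 rose, with a median of -0.36. Wnt6 measured 4.003, 4.51 and 5.16 FPKM without and 0.528, 0.434 and 0.492 FPKM with NaCl (-2.36, SE 0.096). Wnt10a, another ligand, fell from 2.29 to 0.405 FPKM (-1.63, SE 0.092, and -2.45 with voom), and Tcf7l2, a transcription factor that acts with beta-catenin, fell from 3.69 to 1.91 FPKM (-0.79, SE 0.044). Wnt7b, a ligand made by the collecting duct, rose instead, from 29.0 to 54.5 FPKM (0.90, SE 0.031). Of 19 tested nuclear receptor genes 10 fell and 5 rose. Rxra, the shared partner of many nuclear receptors, fell from 7.22 to 1.47 FPKM (-1.97, SE 0.065), and the retinoic acid receptor gene Rarg from 17.6 to 7.55 FPKM (-1.17, SE 0.045), while Nr4a2 rose from 2.65 to 6.31 FPKM (1.11, SE 0.046).

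**Figure D3:**
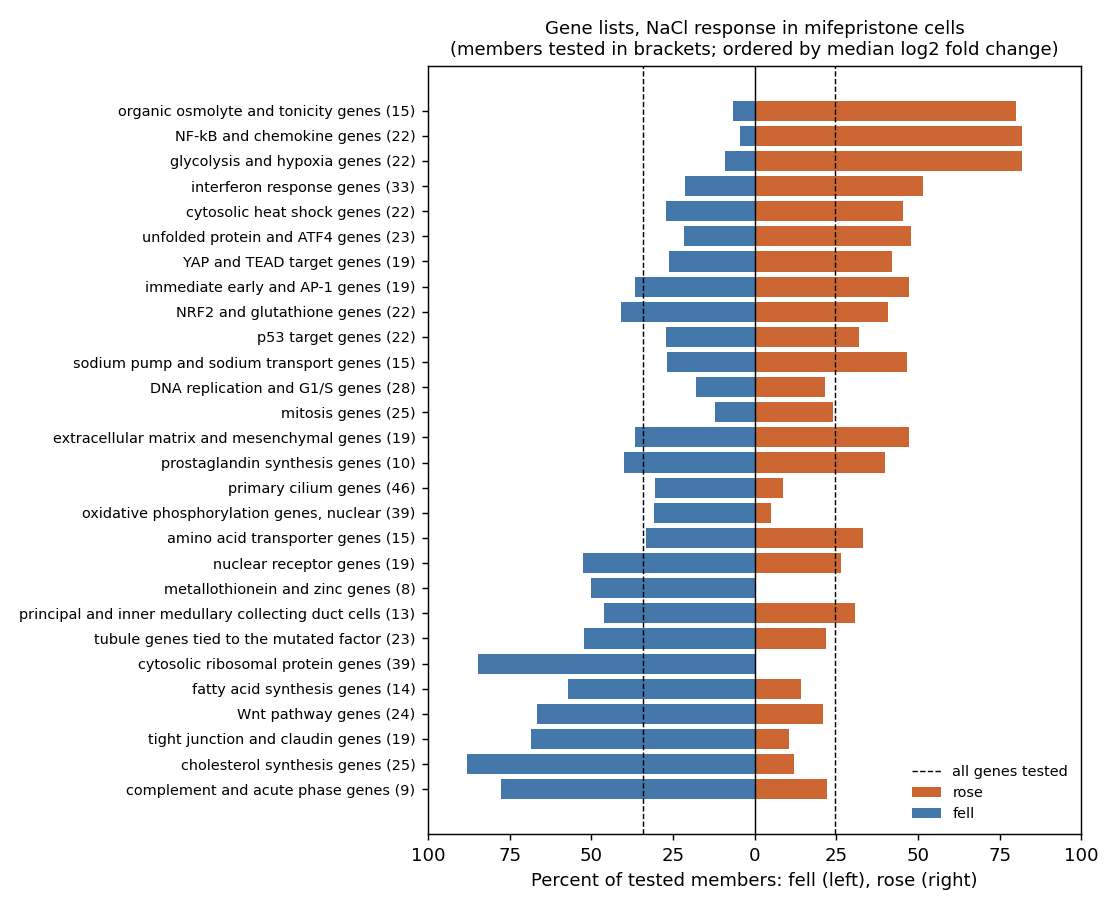
Percent of the tested members of each gene list that fell (bars to the left) and rose (bars to the right) with NaCl in mifepristone cells, ordered by the list's median log2 fold change, with dashed lines at the shares over all genes tested (34.2% and 24.5%). Osmolyte genes rose in 80.0% and NF-kB and chemokine genes in 81.8% of cases, and cholesterol synthesis genes fell in 88.0%. The lists were chosen with earlier results of these data known, so the distance from the dashed lines is not a test.

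The plot of shares by gene list also shows ribosomal protein genes, with falls only. Of 39 cytosolic ribosomal protein genes 33 fell and 0 rose, with a median of -0.29. Rpl5 measured 219, 226 and 271 FPKM without and 178, 180 and 164 FPKM with NaCl (-0.45, SE 0.08), mifepristone C being the highest control. The count depended on single libraries: 17 genes were called lower without mifepristone plus NaCl C and 26 without mifepristone C, and 19 in a fit on only the 6 libraries compared. Ribosomal protein genes have short transcripts, and mifepristone plus NaCl C, too, differed from the other libraries of its group in the length trend (rho 0.359, against -0.237 and -0.245). Across genes, the log2 fold change with NaCl had a rho with exon length of -0.036 in mifepristone cells and 0.188 in vehicle cells. The part of the trends of these 2 libraries in the falls was not tested. Of 39 nuclear genes of oxidative phosphorylation 12 fell and 2 rose, and without mifepristone C 9 fell and 7 rose. Ndufb8, a complex I subunit, rose from 21.1 to 29.0 FPKM (0.46, SE 0.057), and Sdhc of complex II fell from 24.8 to 18.5 FPKM (-0.41, SE 0.058).

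Cell cycle genes shifted little. Of 25 mitosis genes 6 rose and 3 fell (10 and 2 without mifepristone C, and 6 and 1 without any of mifepristone B, mifepristone plus NaCl A or C, or vehicle plus NaCl B or C), and of 28 DNA replication and G1/S genes 6 rose and 5 fell (10 and 6 without mifepristone C). Ndc80, a kinetochore gene, rose from 30.1 to 42.5 FPKM (0.49, SE 0.041), and Cdc6, which licenses replication origins, from 16.4 to 25.6 FPKM (0.63, SE 0.035). Ccnd1, cyclin D1, fell from 1.89 to 0.300 FPKM (-1.57, SE 0.083, and -2.59 with voom). Among 22 tested p53 target genes 7 rose and 6 fell. Plk2, a stress-induced kinase, measured 40.7, 39.6 and 38.1 FPKM without and 157, 176 and 159 FPKM with NaCl (2.04, SE 0.059), Mdm2 rose from 14.5 to 25.8 FPKM (0.81, SE 0.05), and Sesn1, sestrin 1, fell from 15.1 to 9.68 FPKM (-0.61, SE 0.046).

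Kidney tubule genes that earlier studies tie to the mutated factor fell more often than they rose, with 12 of 23 tested lower, 5 higher and 6 not called, and a median of -0.28. The members that rose include Kcnj16, a potassium channel gene of the distal nephron (8.56 to 61.2 FPKM, 2.77, SE 0.048), Cdh16, the kidney-specific cadherin (31.6 to 121 FPKM, 1.92, SE 0.04), and Slc17a1, a phosphate transporter gene (0.285 to 3.55 FPKM, 2.37, SE 0.06, and 3.67 with voom). Nr1h4, the bile acid receptor FXR (chromosome 10, 89454234 to 89533585), measured 4.32, 4.17 and 4.63 FPKM without and 1.63, 1.87 and 1.61 FPKM with NaCl, and all treated libraries were below all controls (-1.15, SE 0.071). Pkd2, a polycystic kidney disease gene, changed slightly, from 14.4, 14.2 and 12.2 to 11.6, 11.6 and 11.9 FPKM (-0.21, SE 0.054, adjusted p 0.00662).

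Pkhd1, the gene of recessive polycystic kidney disease, measured 2.27, 2.07 and 1.21 FPKM without and 1.16, 1.34 and 1.38 FPKM with NaCl, and mifepristone C lay within the treated range. Its change of -0.36 (SE 0.184, adjusted p 0.118) was not called, and without mifepristone C it was -0.57 (adjusted p 0.00753). Kif12, a kinesin gene linked to cystic kidney disease, was at 1.004, 1.03 and 0.9804 FPKM without and 1.06, 0.806 and 0.929 FPKM with NaCl, with overlapping groups (-0.08, SE 0.059, adjusted p 0.287). It was called with quantile normalization (-0.20, adjusted p 0.0308) and without mifepristone plus NaCl A (-0.14, adjusted p 0.0432). Umod, uromodulin, was near 0 in both groups, with 68 reads without and 18 with NaCl (ratio 0.273, counting interval 0.153 to 0.464). Its log2 fold change was -0.29 (SE 0.078, adjusted p 0.00761) on the FPKM scale and -1.78 with voom. Primary cilium genes as a group changed little, with 14 of 46 lower, 4 higher and a median of -0.07. Glis2, a zinc finger gene of nephronophthisis, fell from 17.7 to 9.51 FPKM (-0.86, SE 0.045), and Ift80, of the intraflagellar transport complex, rose from 7.29 to 10.6 FPKM (0.51, SE 0.037).

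Markers of the nephron segments shifted too. Of 13 tested principal and inner medullary collecting duct markers 4 rose and 6 fell, and their summed level went from 944.5 to 1088 FPKM without to 848.3 to 884.8 FPKM with NaCl. Pax2, a transcription factor of kidney epithelium, measured 6.99, 6.62 and 5.89 FPKM without and 33.0, 30.5 and 34.8 FPKM with NaCl (2.25, SE 0.072), and its relative Pax8 rose from 18.04 to 42.6 FPKM (1.22, SE 0.034). Cdh1 fell from 80.4 to 53.7 FPKM (-0.58, SE 0.035). Of 15 intercalated cell markers 13 stayed under 1 FPKM in all 6 libraries, and the others rose: Car2, carbonic anhydrase 2, from 2.15 to 9.67 FPKM (1.94, SE 0.061) and Slc26a4, the anion exchanger pendrin, from 0.467 to 1.36 FPKM (0.94, SE 0.064, and 1.58 with voom). Of 16 proximal tubule markers 14 stayed under 1 FPKM, the exceptions being Aqp1 and Slc17a1.

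The authors' deposited table marks genes with a nearby ChIP peak. The mark was carried by 3987 of 14044 tested genes (28.4%), by 31% of the genes that rose and by 32.1% of those that fell. Among genes changed at least 2-fold it was carried by 188 of 468 rises (40.2%) and by 133 of 257 falls (51.8%). The largest marked rises were Prss35, Me1 and Aqp1, and the largest marked falls were Slpi, Tnc and Fgf1. These shares are descriptions, and their relation to level or gene length was not tested.

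The same NaCl treatment was then compared between mifepristone and vehicle cells, to ask whether the response differs when the mutant is on. The group means compared in mifepristone and in vehicle cells share no library. Each gene's spread was estimated over all 12 libraries, however, so the calls in both kinds of cell are not independent. In vehicle cells 7965 genes were called (56.7%), of which 3541 rose (25.2%) and 4424 fell (31.5%). A total of 2173 genes rose in both, 63.2% of those that rose in mifepristone cells and 61.4% of those in vehicle cells, and 3004 fell in both (62.5% and 67.9%). Opposite calls were fewer: 186 genes rose with mifepristone and fell with vehicle, and 242 did the reverse. Across genes, which are not independent replicates, the log2 fold changes correlated at 0.734 (Pearson) and 0.643 (Spearman).

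The interaction, the difference between the NaCl effects, was called for 1915 genes with a more positive effect in mifepristone cells (13.6%) and 2459 with a more negative one (17.5%). Without mifepristone C these counts were 3148 and 3636, so this library bears on how many differences pass. Of the 468 genes that rose at least 2-fold, 414 rose in vehicle cells too, 245 of them at least 2-fold (background in vehicle cells 2.73% higher and 1.28% lower), and the interaction was called in favour of a larger rise with mifepristone for 268 and of a smaller one for 58 (218 and 52 with voom). Their median log2 fold change was 1.39 with mifepristone and 1.05 with vehicle, but they were chosen by the former, which favours larger values there, so neither these counts nor the medians are a test. The 257 large falls were called lower in vehicle cells in 211 cases, with medians of -1.23 and -0.77 chosen in the same way.

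**Figure D4:**
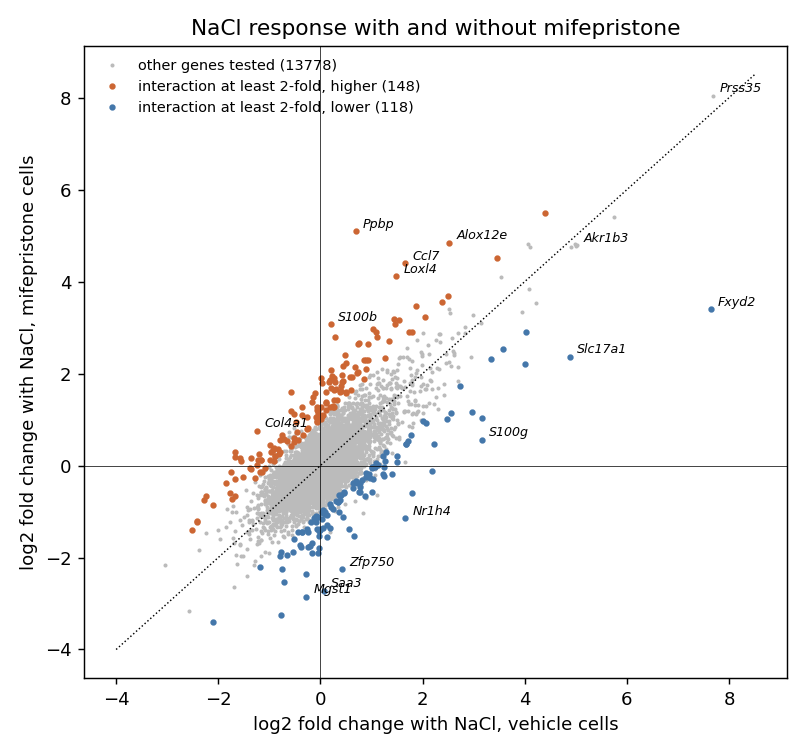
Log2 fold change with NaCl in vehicle cells (horizontal axis) against that in mifepristone cells (vertical axis), with 1 point per tested gene and genes with an interaction of at least 2-fold coloured. Most genes lie along the diagonal (Pearson r 0.734), and Fxyd2 (7.64 against 3.40) and Ppbp (0.69 against 5.09) lie far from it on opposite sides.

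As the plot of both responses shows, a few named genes stood far from the shared course. Fxyd2 rose in vehicle cells from 0.0365, 0.0707 and 0.0325 FPKM to 107, 106 and 114 FPKM (7.64), against about 5 FPKM with mifepristone. The difference between the effects was -4.25 (adjusted p 2.27e-10). Slc17a1 followed it, reaching 45.1, 46.1 and 46.3 FPKM with NaCl in vehicle cells (4.88) but 3.77, 3.63 and 3.26 FPKM with mifepristone (difference -2.51). The calcium-binding protein gene S100g rose in vehicle cells to 6.53, 6.30 and 7.68 FPKM, and with mifepristone stayed at 0.136, 0.396 and 0.790 FPKM, overlapping its own controls (0.0458, 0.176 and 0.126 FPKM, difference -2.61). S100g passed the filter only through the vehicle libraries with NaCl, which favours a difference. Its change with mifepristone rested on 8 and 30 reads (0.56, adjusted p 0.0456) and was not called in most alternative settings, for example without mifepristone plus NaCl C (0.3, adjusted p 0.175). Nr1h4 changed direction: in vehicle cells it rose from 1.98, 1.77 and 1.77 to 7.55, 6.77 and 6.39 FPKM (1.66), whereas with mifepristone it fell (difference -2.80, adjusted p 3.41e-08).

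Ppbp showed the reverse order. In vehicle cells it rose only from 5.05, 4.83 and 3.99 to 7.65, 6.76 and 8.97 FPKM (0.69), and the difference between the effects was 4.40 (adjusted p 1.41e-08). S100b, another calcium-binding protein gene, reached 5.07, 3.91 and 4.09 FPKM with mifepristone and NaCl but 0.136, 0.135 and 0.0856 FPKM with vehicle and NaCl (difference 2.87). It passed the filter only through the mifepristone libraries with NaCl, which favours a difference. Loxl4 rose 1.48 in vehicle cells against 4.11 with mifepristone (difference 2.63). Col4a1, a basement membrane collagen gene, rose with mifepristone from 3.50, 3.46 and 3.10 to 6.15, 5.71 and 6.21 FPKM (0.76) and fell in vehicle cells from 4.09, 4.63 and 4.87 to 1.56, 1.68 and 1.61 FPKM (-1.25), a difference of 2.01 (adjusted p 1.59e-07). Ctgf fell in both kinds of cell, by less with mifepristone (difference 1.26). It went from 9.42 to 5.02 FPKM with mifepristone (-0.85) and from 31.7 to 6.96 FPKM with vehicle (-2.11). Cdh2 (difference 1.04), Ptgs1 (1.73) and Cxcl2 (1.63) rose in both, by more with mifepristone.

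Some genes that fell with mifepristone were near 0 in vehicle cells with and without NaCl. For a gene near 0 a fall can hardly show on the FPKM scale, so its fall with mifepristone gives a negative difference by itself. Saa3 had 1 read in the 3 vehicle libraries and 3 in those with NaCl (difference -2.80). Zfp750 had 18 and 98 reads in vehicle cells, where it was called higher with NaCl (0.42, adjusted p 0.00121, and 2.38 with voom), so its direction changed between the cells (difference -2.68). Mgst1 had 46 and 14 reads there (difference -2.58). Peg10 fell 0.78 on the log2 scale in vehicle cells, from 11.1, 12.5 and 12.4 to 6.46, 7.02 and 6.87 FPKM, against 3.26 with mifepristone (difference -2.48), so that all 6 libraries with NaCl ended between 6.46 and 11.6 FPKM.

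For genes near 0 in 1 group the difference depends on the scale. With voom it was 0.38 for Ccl7 (2.73 on the FPKM scale, adjusted p 0.683 with voom), -0.62 for Slpi (-1.80, adjusted p 0.343), 0.26 for Cldn2 (1.11, adjusted p 0.218) and 0.35 for Umod (1.38, adjusted p 0.534), and none of these 4 was called. It changed sign for Slc6a12 (1.08 to -0.18), Alox12e (2.32 to -0.26) and Wnt6 (-2.07 to 0.21). The call was lost for these too (adjusted p 0.874, 0.683 and 0.844 with voom), so their turned sign is not a call in the opposite direction. For Prss35, near 0 in both control groups, a small positive difference of 0.35 (adjusted p 0.00944) became -1.12 with voom (adjusted p 0.0355), a call in the opposite direction. Of all 148 interactions of at least 2-fold in the positive direction voom called 122 in the same direction, and of the 118 in the negative direction 111, with 0 in the opposite direction (148 and 118 are 1.05% and 0.84% of all genes tested). Among the osmolyte genes, Akr1b3 rose alike in both (4.77 and 5.01, difference -0.24, adjusted p 0.145), Slc6a6 did not differ by test either (difference 0.25, adjusted p 0.219), and Slc5a3 rose less with mifepristone (1.13 and 2.02, difference -0.88, adjusted p 0.000531) from a higher starting level (26.0 against 5.98 FPKM). Aqp1 rose by more with mifepristone (4.52 against 3.46, difference 1.06) but to a lower level, 141 against 435 FPKM. A p that misses the threshold does not show that responses are equal.

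Many genes outside the tested set also gained reads with NaCl. A total of 10058 genes lay below the FPKM filter but had at least 10 reads over the libraries, and voom called 2138 of them at least 2-fold higher (21.3%) and 349 at least 2-fold lower (3.47%). The median rise was 1.99 on the log2 scale, and 63.9% of the genes that rose were annotated as protein coding. In vehicle cells 1180 rose (11.7%) and 364 fell (3.62%). The genes below the filter took 0.348% to 0.4% of reads in the mifepristone controls and 0.455% to 0.49% with NaCl, against 0.34% to 0.382% in vehicle cells and 0.365% to 0.388% with NaCl.

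At equal depth, genes with at least 1 read numbered 23738.7 to 24360.5 in the mifepristone controls and 25864.3 to 26438.7 with NaCl, with no overlap. With vehicle the counts were 22615.1 to 23079.4 and 24042.8 to 24332.7. Sox6, a developmental transcription factor, went from 170 to 1100 reads (2.76 with voom, SE 0.18), and P2ry14, a receptor for UDP-glucose, from 224 to 1386 (2.67, SE 0.11). These genes have many reads but long transcripts, which keeps their FPKM low, and they were named after their values were seen.

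**Figure D5:**
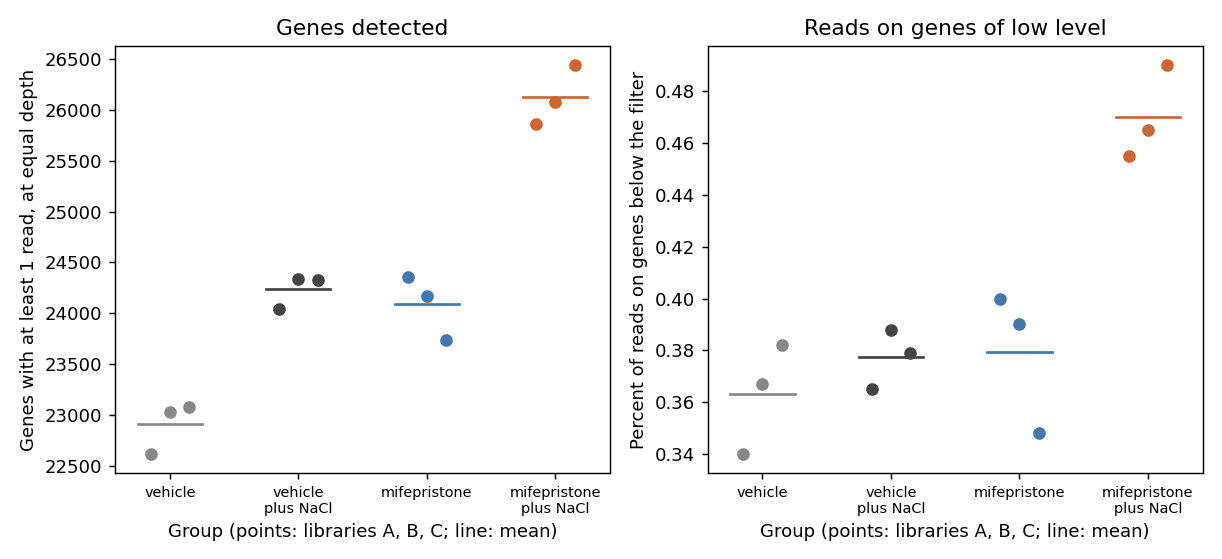
Left, the number of genes with at least 1 read at equal depth, and right, the percent of reads on genes below the FPKM filter, in each of the 12 libraries by group (points, with a line at the mean). The mifepristone libraries with NaCl lie above all others in both, at 25864.3 to 26438.7 genes and 0.455% to 0.49% of reads.

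The plot of detected genes shows more of them with NaCl in both kinds of cell. Some genes were silent or nearly so before NaCl. Prima1, which anchors acetylcholinesterase to membranes, had 0 reads in the 3 controls and 244 with NaCl (1.27, 1.37 and 1.58 FPKM), at least 83.8-fold higher against a floor of 3 reads over the group, with 67.6 as the lower limit of the exact interval. Cxcl3, a neutrophil chemokine, had 2 and 163 reads (ratio 83.9, counting interval 22.9 to 699), Scn11a, a sodium channel gene of sensory neurons, 1 and 149 (ratio 153, interval 27.1 to 6101), and Npy4r, a receptor for pancreatic polypeptide, 2 and 148 (ratio 76.2, interval 20.7 to 635). Slc14a1, given above, had a ratio of 202 (interval 35.8 to 8013). Each of these genes stayed low in absolute terms, under 2 FPKM.

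The authors' deposited table for NaCl in mutant cells gave an adjusted p under 0.05 for 3252 genes with a rise and 4704 with a fall among the genes tested here. Of these, 3231 and 4584 were also called here in that direction, and 0 were called in opposite directions. For Akr1b3 the authors' deposited table gives a log2 fold change of 4.75 and for Prss35 of 9.56. The authors' deposited table also marks 52 genes with an interaction, 41 of them among the genes tested here, and the interaction was called here for all 41. Over all genes tested it was called here for 4374 (31.1%), and whether the authors' mark rests on a like threshold was not tested.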

How the data were processed

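RNA of 12 libraries was sequenced after polyA selection, per the labels' protocols, and the values used are FPKM per gene and library as the authors deposited them. Per the submitters' processing notes, Trimmomatic 0.32, STAR 2.4.2a, SAMtools 1.0 and DESeq2 1.12.3 were used with the build GRCm38 (mm10). How reads were counted, with which annotation and whether by strand, was not given in the sources used here. Overlapping genes may therefore share reads. The authors' deposited tables of comparisons hold log2 fold changes, mean normalized signal, adjusted p-values and, for each gene, whether a ChIP peak lies nearby. The columns named for the mutant were matched to the mifepristone samples by the NaCl part of the name, the letter and knowledge of the study.

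Genes with at least 1 FPKM in at least 3 of 12 libraries were tested (14044 of 48034). A gene that reaches 1 FPKM in 1 group alone is tested because of that group, which favours a difference. limma 3.58.1 in R 4.3.3 fitted 4 group means to log2(FPKM + 0.5), with 8 residual degrees of freedom, a trended and robust empirical Bayes step, and adjustment by Benjamini and Hochberg over all tested genes at 0.05. SE is the standard error of a log2 fold change, with n = 3 libraries a group, and all p-values are two-sided. Low values were whole multiples of 1 read in 100.0% of cases (tolerance 0.05 reads), and voom was run on the recovered reads as a count-based alternative. It called 4020 genes higher and 4096 lower. A group with 0 reads was set to a floor of 3 reads (0.0609 to 0.0715 CPM in 1 library), and the 95% exact intervals of read ratios cover counting error only. Of the gene IDs, 98.5% matched GENCODE M21, the source of coordinates, and promoter windows came from RefSeq.

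Members and gene lists were chosen with earlier results of these data known. Genes were named by these rules: the 12 largest rises and falls among called genes with a mean of at least 1 FPKM and groups that do not overlap, 4 genes without a proper symbol being passed over; the 6 largest interactions each way; up to 4 members of a list with the smallest adjusted p; 14 kidney and tonicity genes in every case; the 3 largest marked changes each way; and the 6 largest gains from near 0. Genes said to be named after their values were seen lie outside these rules, as do Gucy2g and Pcx. Some genes that the rules select are not reported here. The scripts' tests were checked on simulated data. The simulation gave all genes the same spread and no library a length trend, so it does not cover libraries that stand apart, such as mifepristone C. Alternatives were other pseudocounts, filters, scalings, library weights, fits on fewer libraries, a replicate block and voom.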

Additional observations from a re-analysis of the deposited data

Results flagged for a closer look

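The response to NaCl differed between mifepristone and vehicle cells, by a test of the interaction in limma, for 1915 genes in the positive and 2459 in the negative direction. Among the genes named above, the interaction was called and at least 2-fold for the following, given as the log2 effect in mifepristone cells minus that in vehicle cells. Chemokine and secreted protein genes with a more positive effect were Ppbp (4.40), Ccl7 (2.73) and Cxcl2 (1.63). Enzyme genes with a more positive effect were Loxl4 (2.63), Alox12e (2.32), Ptgs1 (1.73) and Car2 (1.35). Matrix and adhesion genes of this kind were Col4a1 (2.01), Ctgf (1.26), Cldn2 (1.11) and Cdh2 (1.04). Transporter and channel genes were Slc6a12 (1.08), Aqp1 (1.06), Slc7a7 (1.02) and Slc26a4 (1.01), and the remaining genes were S100b (2.87), Umod (1.38) and Prima1 (1.31). Of these, S100b, Slc7a7, Slc26a4 and Prima1 reached 1 FPKM only in mifepristone plus NaCl, and Umod only in vehicle cells without NaCl. They passed the filter through that group alone, which favours a difference, so their values are descriptions and not tests.

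A more negative effect was found for Fxyd2 (-4.25), Nr1h4 (-2.80), S100g (-2.61), Slc17a1 (-2.51) and Peg10 (-2.48). The acute phase and innate immunity genes Saa3 (-2.80), Slpi (-1.80) and Cd14 (-1.18) belong here, as do the detoxification gene Mgst1 (-2.58) and the transcription regulators Zfp750 (-2.68) and Nab2 (-1.02). The secreted factor and matrix genes were Wnt6 (-2.07), Tnc (-1.51) and Fgfbp1 (-1.30). Saa3, Slpi, Mgst1 and Wnt6 were under 1 FPKM in all libraries of vehicle cells, where a fall can hardly show on this scale. Their fall with mifepristone gives a negative difference by itself, so these values are no test. S100g reached 1 FPKM only in vehicle plus NaCl, and Mgst1, Zfp750 and Wnt6 only in mifepristone without NaCl. They were tested because of that group, which favours a difference. With voom the call was lost for Slc6a12, Alox12e and Wnt6, whose sign turned, and for Ccl7, Slpi, Cldn2 and Umod.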

How the results depend on the processing

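The counts for NaCl in mifepristone cells moved by more than 1.5 times in few settings. Genes called higher numbered 5876 with no filter and 2026 with a mean of at least 5 FPKM, which test more and fewer genes. Rises of at least 2-fold numbered 235 with that stricter filter. Falls of at least 2-fold numbered 124 with it, 389 with a pseudocount of 0.1 and 387 with voom. Interactions numbered 3878 higher and 4266 lower with library weights, in which mifepristone C had a weight of 0.12, and 985 higher with the stricter filter. The cause of these shifts was not tested apart from the number of genes tested. Leaving out each library in turn gave 3048 to 3673 genes higher and 4220 to 5026 lower in mifepristone cells (at least 2-fold, 464 to 475 and 249 to 288), 3015 to 4058 and 3882 to 4917 in vehicle cells, and interactions of 1547 to 3148 higher and 1954 to 3636 lower, the upper values being those without mifepristone C. Below the filter the ranges were 1799 to 2047 higher and 296 to 440 lower, an alternative chosen after seeing the data.

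With voom the interaction was -0.18 for Slc6a12, -0.26 for Alox12e and 0.21 for Wnt6. These were of opposite sign to the FPKM scale and were not called. For Prss35 the interaction with voom was -1.12 against 0.35 on the FPKM scale. With median-ratio scaling 3993 genes were higher and 4082 lower.

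Deviations of same-letter libraries from their group means correlated negatively in mifepristone cells (r across genes of -0.308, -0.088 and -0.488). In vehicle cells they correlated positively (0.274, 0.084 and 0.051). Mifepristone C and mifepristone plus NaCl C had opposite length trends, whose part in these values was not tested. With 3 libraries a group, the values cannot show whether the letters mark a batch. The main fit took them as numbers only. With the letter as a replicate block, 3250 genes were higher and 4446 lower in mifepristone cells, 3283 and 4196 in vehicle cells, and interactions numbered 1662 and 2062. No library correlated best with its own letter in mifepristone cells, where n = 3 pairs, whereas in vehicle cells some did, such as vehicle A (0.274). The 3 libraries a group, from 1 clone, limit precision, and near 0 so does depth.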

Other observations

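Of the 60 largest rises 8 were predicted genes without a proper symbol, 3 of them the near-copies of Akr1b3 given above.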
